A study of Mus musculus with 12 samples.

Results

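The data described here are the levels of 7 subunit genes of the GABA-A receptor, Gabra2, Gabra3, Gabra5, Gabrb1, Gabrb2, Gabrg1 and Gabrg3, in mouse dorsal root ganglia after nerve injury. They were taken by gene symbol from the 24060 genes listed in each library, and all 7 passed the filter on low values that left 14195 genes for testing. Dorsal root ganglia hold the cell bodies of the sensory neurons of the limbs and trunk, with their satellite glia, Schwann cells, vessels and resident macrophages. The ganglia came from male C57BL/6J mice of 9 to 10 weeks, either naive or taken 1, 3 or 7 days after spared nerve injury. In that model of neuropathic pain 2 branches of the sciatic nerve, tibial and common peroneal, are ligated and cut and the sural one is spared, so a ganglion holds both cut and intact neurons. Each of the 4 groups had 3 RNA-seq libraries, naive mice had no operation, and no sham-operated group was analysed here. Whether a library is 1 mouse or a pool is not given in the labels.

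The GABA-A receptor is a chloride channel that opens when it binds GABA. It is assembled from 5 subunits around a central pore, in most receptors α and β subunits with 1 γ or δ subunit. The α and β subunits form the GABA binding site, and the pocket between α and γ binds benzodiazepines. Sensory neurons keep a high internal chloride concentration through the importer encoded by Slc12a2, so GABA depolarizes them, and receptors on their central terminals mediate presynaptic inhibition in the spinal cord. The question was how the mix of subunit transcripts differed between naive ganglia and each day after injury.

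Levels are given as RPKM, reads per kilobase of gene length and per unit of library size, as deposited. Fold changes and tests come from 1 limma model over all 12 libraries on scaled log2(RPKM + 0.5), with Benjamini-Hochberg adjustment over all 14195 genes, and a gene was called changed at an adjusted p under 0.05. Whole reads recovered from the steps between RPKM values summed to between 11330773 and 14780889 per library. The labels of the groups were checked with Atf3, a transcription factor that injured sensory neurons switch on, which stood at 2.36 ± 0.0266 RPKM (SD, n = 3) in naive ganglia, 69.4 ± 10.7 at day 1, 90.9 ± 11.7 at day 3 and 55.8 ± 13.2 at day 7. Skeletal muscle transcripts, 7 genes summed, reached 33.4 RPKM in naive replicate 1 and 23.7 RPKM in day 7 replicate 2, against 0.967 to 5.64 RPKM in the other 10 libraries. Every member result is therefore also given without those 2 libraries where that changes a call. The 11 neuron markers were all detected, with sums of 1260 to 1640 RPKM in naive libraries, 1029 to 1579 at day 1, 1123 to 1505 at day 3 and 864 to 1409 at day 7. The 864 was day 7 replicate 1, and replicate 3 was at 1377. Snap25 was the most abundant. Limma called 0 of the 11 lower at any day, against 0.831%, 2.04% and 0.655% of all genes at days 1, 3 and 7. It called 1 higher at days 1 and 3, Elavl3, named after its values were seen, against 2.54% and 3.7% of all genes. The sum of 9 central nervous system markers stayed between 2.88 and 4.85 RPKM, most of it from Aqp4, and Olig1 was at 0 in every library. In such bulk samples fewer cells of a type and less RNA per cell cannot be told apart.

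The members lie on 4 chromosomes in the mm10 genome (GENCODE M21). On chromosome 5, Gabrg1 (70751047 to 70842617, minus strand) is followed by Gabra2 (70957597 to 71095849, minus strand), Gabra4 and Gabrb1 (71658113 to 72149037, plus strand). On chromosome 11, Gabrb2 (42419757 to 42629028, plus strand) is the only member. On chromosome 7, Gabrg3 (56716465 to 57387188, minus strand) and Gabra5 (57407672 to 57510059, minus strand) are neighbours. Gabra3 (72432681 to 72656848, minus strand) is on chromosome X. The labels do not say whether the libraries keep strand. Gabrb1 shares only the stretch from 71658113 to 71658308 with the opposite-strand Gabra4, which was listed at 0.122 to 0.495 RPKM. Without strand, reads from that stretch could come from either gene. The same holds for reads from the exon bases that Gabra5 shares with the antisense gene Gm9962, listed at 0 to 0.139 RPKM.

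The 250 bases before the RefSeq start sites of Gabrg1, Gabra2 and Gabrb2 are shown (GRCm38.p6) because Gabrg1 and Gabrb2 are the members called changed, and Gabra2 is the neighbour of Gabrg1 that was not. Each runs 5′ to 3′ on the strand of its gene, up to the base before the start, at chr5:70842618-70842867 (minus strand), chr5:71095850-71096099 (minus strand) and chr11:42420190-42420439 (plus strand). Capitals mark any match to the 5 motifs searched on both strands.
Gabrg1: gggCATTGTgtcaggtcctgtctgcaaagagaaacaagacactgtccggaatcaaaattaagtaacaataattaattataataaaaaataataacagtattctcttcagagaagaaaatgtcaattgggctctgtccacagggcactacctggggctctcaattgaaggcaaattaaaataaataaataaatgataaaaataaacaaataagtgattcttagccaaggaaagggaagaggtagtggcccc
Gabra2: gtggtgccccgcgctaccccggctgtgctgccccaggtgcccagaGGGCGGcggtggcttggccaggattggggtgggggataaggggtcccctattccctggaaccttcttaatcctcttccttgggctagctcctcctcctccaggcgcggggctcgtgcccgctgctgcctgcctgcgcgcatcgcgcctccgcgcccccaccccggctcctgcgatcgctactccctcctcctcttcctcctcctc
Gabrb2: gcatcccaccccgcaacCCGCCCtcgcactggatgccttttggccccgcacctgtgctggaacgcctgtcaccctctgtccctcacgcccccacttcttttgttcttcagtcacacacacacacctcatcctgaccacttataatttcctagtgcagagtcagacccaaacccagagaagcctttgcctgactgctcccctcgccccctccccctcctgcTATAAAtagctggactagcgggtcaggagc
The neighbours on chromosome 5 have upstream sequences of opposite base composition. That of Gabrg1 is 35.6% G and C with 1 CpG, at the 5.41 percentile of all 32851 RefSeq windows of this length, whose median is 52.4%. That of Gabra2 is 70.0% G and C with 18 CpGs, at the 90.8 percentile, and the window shown for Gabrb2, the first of its 3, is 58.8% with 8 CpGs. That window lies before a RefSeq start but inside the GENCODE span of Gabrb2, which begins at 42419757. The other Gabrb2 windows, which start further into the gene, are 54% and 36.8% G and C with 8 and 4 CpGs. The last is at the 6.74 percentile, and neither holds a match to any of the motifs. The capitals are a Sox motif (ACAANG) starting 247 bases before the start of Gabrg1, a GC box (GGGCGG) 205 bases before that of Gabra2, and a TATA box (TATAAA) 30 bases and a GC box 233 bases before that of Gabrb2. The Sox motif is in 36.3% of all windows, the GC box in 32.7% and the TATA box in 12.4%. The AP-1 motif (TGANTCA), in 6.75% of all windows, and the cyclic AMP response element (TGACGTCA), in 1.55%, have no match in any of the 11 windows of the 7 members. Absence says only that these letters are not in these windows.

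In naive ganglia Gabra2 was the most abundant member, at 23.1 ± 3.11 RPKM (SD, n = 3). Below it stood Gabrg1 at 7.65 ± 0.755, Gabrb2 at 5.89 ± 0.468, Gabra5 at 3.57 ± 1.19, Gabrg3 at 2.47 ± 0.149, Gabrb1 at 2.32 ± 0.381 and Gabra3 at 1.53 ± 0.24 RPKM. Neighbours in this order did not overlap between their naive libraries, except that the ranges of Gabrg3 and Gabrb1 did. The reads behind these levels differed widely, from 469 to 1602 per library for Gabrg1, 536 to 1015 for Gabra2 and 239 to 795 for Gabrb2, down to 35 to 98 for Gabrg3. By day 7 Gabrg1, at 12.8 to 19.0 RPKM, overlapped with Gabra2, at 16.4 to 20.2 RPKM.

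**Figure D1:**
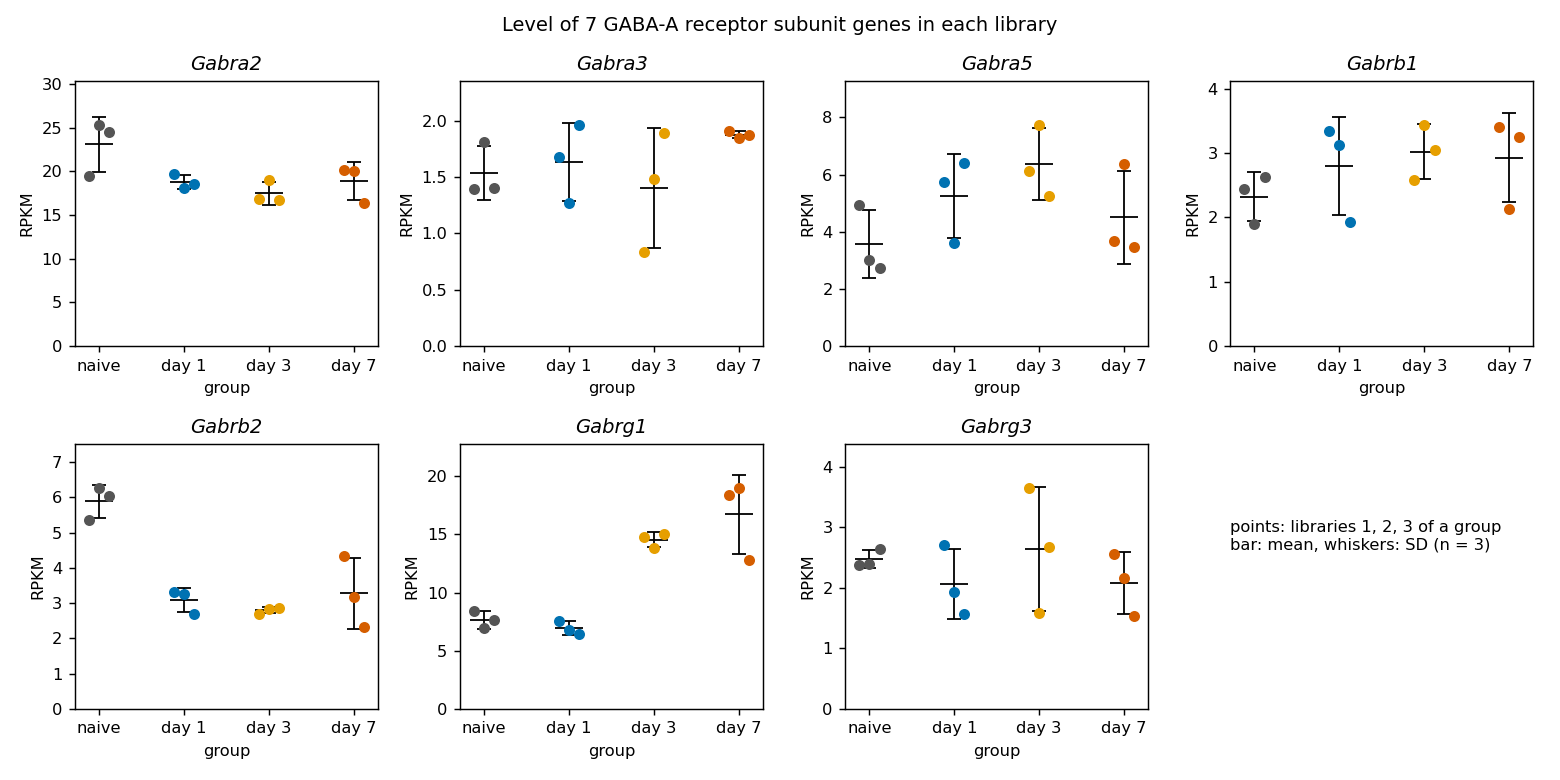
RPKM (vertical axes) of each of the 7 subunit genes in every library by group (horizontal axes, naive and days 1, 3 and 7), with points for libraries and bars for the mean and SD of 3 libraries. Gabrg1 is higher in every day 3 and day 7 library than in any naive or day 1 library, and Gabrb2 is lower in every injured library than in any naive library.

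At day 1, 0 of the 7 members were called changed by limma, while 3.37% of all tested genes were. At an unadjusted p under 0.05 there was 1, Gabrb2, and limma-voom on the recovered reads called the same 1. Here and below, shares of all genes beside counts called against naive are limma calls at an adjusted p under 0.05. Counts at an unadjusted p or by voom have no such share beside them and cannot be set against these. At day 3, 2 of 7 were called, Gabrg1 higher and Gabrb2 lower, against 5.73% of all genes, and at day 7 only Gabrg1, higher, against 2.9%. Of all genes, 2.54% were called higher and 0.831% lower at day 1, 3.7% and 2.04% at day 3 and 2.24% and 0.655% at day 7. In the test over all 4 groups together, 2 of 7 were called, Gabrb2 (adjusted p = 0.0404) and Gabrg1 (adjusted p = 0.000842), against 4.83% of all genes. The call of Gabrb2 in that test was lost in 14 of 23 alternatives (adjusted p from 0.00101 to 0.215), and that of Gabrg1 held in all 23. The median log2 fold change of the 7 members was -0.13, 0.00 and 0.21 at days 1, 3 and 7, with -0.01, -0.00 and -0.01 for all genes. Libraries did not overlap with naive for 1 member at day 1, 4 at day 3 and 3 at day 7, where 22.7%, 26.5% and 18.1% of all genes did not. The 3 comparisons share the naive libraries.

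**Figure D2:**
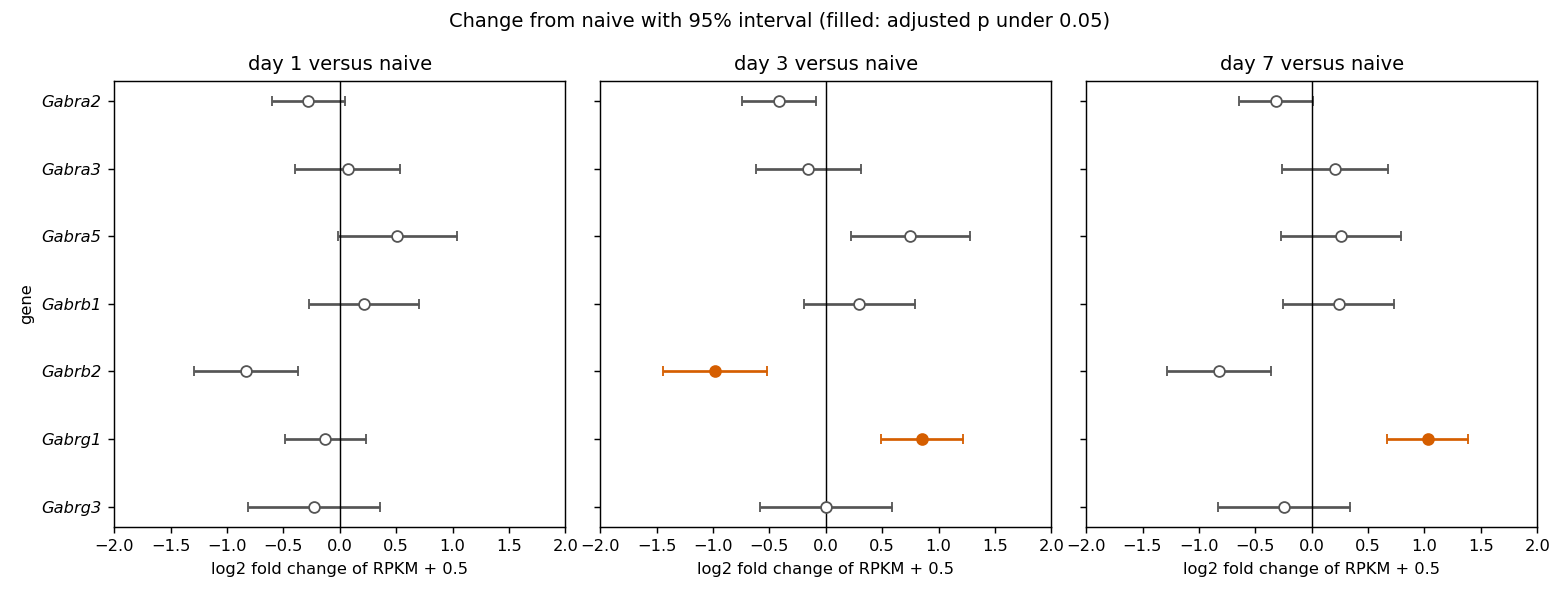
Log2 fold change of each of the 7 subunit genes against naive at days 1, 3 and 7 (horizontal axis, scaled log2(RPKM + 0.5)), with 95% intervals from the limma model. The intervals are not adjusted for the number of genes. Those of Gabrg1 lie above 0 at days 3 and 7, and those of Gabrb2 lie below 0 at all 3 days. At day 3 the interval of Gabra2 also lies below 0 and that of Gabra5 above 0. Of these, only Gabrg1 at days 3 and 7 and Gabrb2 at day 3 were called.

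Of the γ members, 1 rose. Gabrg1 encodes γ1, which is found in a minority of receptors and gives them low sensitivity to classical benzodiazepines. It stood at 8.44, 6.93 and 7.60 RPKM in naive replicates 1, 2 and 3, at 7.59, 6.74 and 6.46 at day 1, at 14.8, 13.8 and 15.0 at day 3 and at 18.4, 19.0 and 12.8 at day 7. Day 1 overlapped with naive, while all 6 libraries of days 3 and 7 lay above all 6 of naive and day 1. At day 1 the log2 fold change was -0.13 with a 95% interval from -0.49 to 0.23 (adjusted p = 0.804, limma). The rise at day 3 was 1.90-fold by the means and 0.85 ± 0.17 (SE) on the log2 scale (adjusted p = 0.00719, limma). At day 7 the mean was 2.18 times the naive mean, a log2 fold change of 1.03 with an interval from 0.67 to 1.39 (adjusted p = 0.0029, limma).

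Set against day 1 directly, Gabrg1 was 2.10 times as high at day 3, a log2 difference of 0.98 with an interval from 0.62 to 1.34 (adjusted p = 0.0244, limma). Gabrg1 was the 1 of 7 members called in that comparison and the 1 whose libraries did not overlap, where 0.5% of all genes were called and 15.3% did not overlap. At day 7 it was 2.41 times as high as at day 1, with a log2 difference of 1.16 (0.80 to 1.52, adjusted p = 0.00474, limma), again as the 1 of 7 members called, against 0.965% of all genes, and the 1 without overlap, against 14% of all genes. Between days 7 and 3 it differed by 0.17 on the log2 scale (-0.19 to 0.54), and 0 of 7 members and 0% of all genes were called by limma there, with 0 members at an unadjusted p under 0.05 and 0 by voom. The day 3 rise over naive held in every alternative run. Without the 2 libraries with muscle transcripts the day 7 rise was 0.98 on the log2 scale with an adjusted p of 0.0516 (limma), while the call of day 3 against day 1 was lost without day 1 replicate 2 (adjusted p = 0.0732), day 1 replicate 3 (0.0984), or day 3 replicate 1 (0.0971), 2 (0.0904) or 3 (0.0979).

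Macrophage markers moved over the same days as Gabrg1. Summed over 9 genes, each detected in some library, they were 12.7 to 19.5 RPKM in naive libraries and 17.0 to 20.2 at day 1. The sums were 33.3 to 48.9 RPKM at day 3 and 35.7 to 58.6 at day 7. C1qa, which is among the 9, was at 0 in every naive library. Of the 8 tested, 5 rose at day 3 and 5 at day 7, against 3.7% and 2.24% of all genes. The median log2 fold changes of the 8 were 1.03 and 1.29. The part of macrophages in the level of Gabrg1 was not tested. Satellite glial markers, 6 genes summed, ranged from 293 to 394 RPKM in naive libraries, 226 to 331 at day 1, 297 to 372 at day 3 and 280 to 433 at day 7, so each day overlapped with naive, with Fabp7 as the most abundant. Of these 6, 1 rose at day 1 and at day 3, Glul, named after its values were seen (log2 fold changes 0.66 and 0.77, adjusted p = 0.0408 and 0.0112, limma). Of all genes, 2.54% and 3.7% were called higher at those days. The part of satellite glia in the level of Gabrg1 was not tested either.

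Gabrg3, which encodes γ3, was low and scattered. It was listed at 2.38, 2.39 and 2.64 RPKM in naive libraries, 2.70, 1.93 and 1.56 at day 1, 3.65, 1.59 and 2.68 at day 3 and 2.55, 2.16 and 1.54 at day 7. All 3 injured groups overlapped with naive. Its log2 fold changes were -0.23 (95% interval -0.82 to 0.36), 0.00 (-0.59 to 0.59) and -0.24 (-0.83 to 0.34) at days 1, 3 and 7, none called, and the sign at day 3 turned with the settings.

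Among the β genes, Gabrb2, encoding β2, was the member that fell. It stood at 5.37, 6.27 and 6.03 RPKM in naive libraries, at 3.32, 3.26 and 2.70 at day 1, at 2.70, 2.82 and 2.87 at day 3 and at 4.34, 3.16 and 2.32 at day 7. No injured library reached the lowest naive one, and day 7 was the most spread. The fall was called at day 3, where the mean was 0.475 of naive and the log2 fold change -0.98 ± 0.21 (SE), with an interval from -1.44 to -0.52 (adjusted p = 0.0139, limma). At day 1 the log2 fold change was -0.83 (-1.29 to -0.37, adjusted p = 0.0506), and at day 7 it was -0.82 (-1.28 to -0.36, adjusted p = 0.0593, limma). Leaving out naive replicate 2 gave an adjusted p of 0.0711 at day 3, and leaving out naive replicate 3 or the second day 3 library gave 0.0622 or 0.0528. The day 1 value was called in 8 of 24 alternatives, with adjusted p from 0.00219 to 0.186 over all 24. The day 7 value was called in 4 of 24, without scaling (adjusted p = 0.0351), with voom (0.00383), with array weights (0.00414) and without day 7 replicate 1 (log2 fold change -1.08, adjusted p = 0.00502, limma).

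Gabrb1, encoding β1, was listed at 2.44, 1.89 and 2.62 RPKM in naive libraries, 3.34, 3.13 and 1.92 at day 1, 2.58, 3.43 and 3.05 at day 3 and 3.40, 2.13 and 3.24 at day 7. Every group overlapped with naive. Its log2 fold changes were 0.21 (95% interval -0.28 to 0.70), 0.30 (-0.19 to 0.79) and 0.24 (-0.25 to 0.73), none called.

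The α genes among the members gave no call in the model. Gabra2, encoding α2, an α subunit of synaptic receptors that benzodiazepines act on, stood at 19.5, 25.3 and 24.5 RPKM in naive libraries, at 19.7, 18.1 and 18.6 at day 1, at 16.8, 19.0 and 16.7 at day 3 and at 20.2, 20.1 and 16.4 at day 7. The day 3 libraries all lay below naive, while at days 1 and 7 some libraries lay above the lowest naive library, replicate 1. Its log2 fold changes were -0.28 (95% interval -0.61 to 0.05), -0.41 (-0.74 to -0.09, adjusted p = 0.147, limma) and -0.31 (-0.64 to 0.01). With array weights the day 3 value was called (adjusted p = 0.0116, limma).

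Gabra5 encodes α5, the subunit of many extrasynaptic receptors that give a steady current. Its level was 4.93, 3.03 and 2.73 RPKM in naive libraries, 5.75, 3.61 and 6.40 at day 1, 6.11, 7.73 and 5.25 at day 3 and 3.68, 6.37 and 3.46 at day 7. All 3 day 3 libraries lay above naive, of which replicate 1, a library with muscle transcripts, was the highest. The day 3 log2 fold change was 0.75 ± 0.25 (SE), with an interval from 0.22 to 1.28 and a ratio of means of 1.79 (adjusted p = 0.101, limma). It was called with voom (adjusted p = 0.0394), array weights (0.0193), only the 2 groups in the fit (0.0462) and without the 2 libraries with muscle transcripts, where it was 0.94 (0.0334). At days 1 and 7 the log2 fold changes were 0.51 (-0.02 to 1.04) and 0.26 (-0.27 to 0.79), with overlapping libraries.

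Gabra3, encoding α3, was the lowest member. It was listed at 1.39, 1.81 and 1.40 RPKM in naive libraries, 1.68, 1.27 and 1.96 at day 1, 0.837, 1.48 and 1.89 at day 3 and 1.91, 1.85 and 1.87 at day 7. Day 7 lay just above naive without overlap, and the other days overlapped. The log2 fold changes were 0.07 (95% interval -0.40 to 0.54), -0.16 (-0.62 to 0.31) and 0.21 (-0.26 to 0.67), none called, and the signs at days 1 and 3 turned when single libraries were left out.

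Some subunit genes outside the 7 were low. The δ gene Gabrd was listed at 0.0673 to 1.03 RPKM and Gabra4 at 0.122 to 0.495 RPKM, both under the filter, and Gabra6 was listed at 0 in 11 libraries. The ρ gene Gabrr2 passed the filter at 0.404 to 1.86 RPKM, with log2 fold changes of 0.29 (95% interval -0.44 to 1.03), -0.26 (-0.99 to 0.48) and -0.09 (-0.83 to 0.65) at days 1, 3 and 7, none called.

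**Figure D3:**
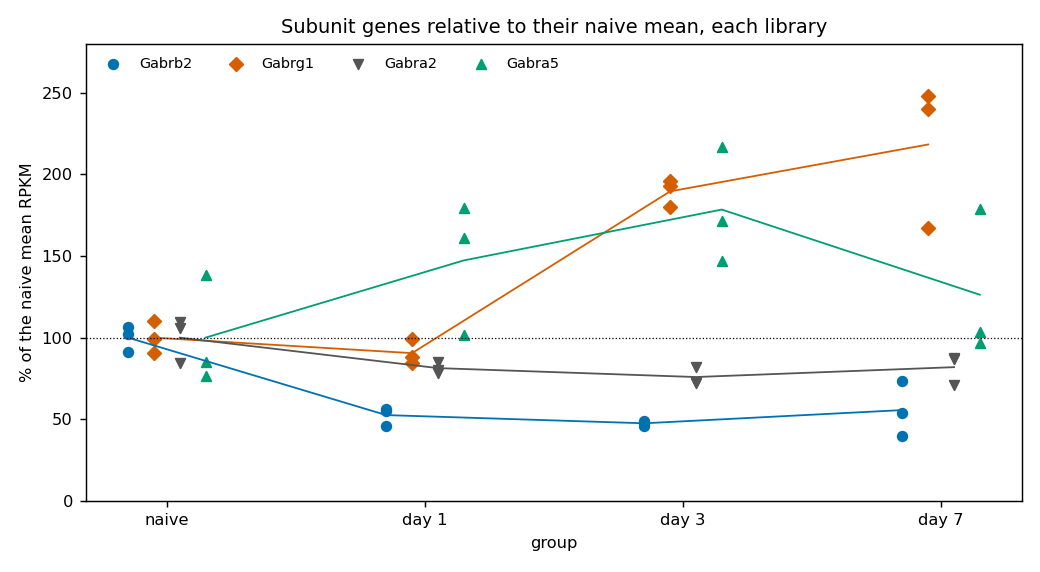
Level of Gabrb2, Gabrg1, Gabra2 and Gabra5 in each library as a percent of the gene's naive mean RPKM (vertical axis) by group (horizontal axis), with points for libraries and lines through group means. Gabrb2 stands at 47.5% and Gabra2 at 75.9% at day 3, Gabrg1 at 190% there and 218% at day 7, and Gabra5 spreads from 147% to 217% at day 3.

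Across the 12 libraries, log2 levels of Gabra2 and Gabrb2 had the highest correlation between members (Pearson r = 0.90) and those of Gabra5 and Gabrb2 the lowest (r = -0.55), as a description of libraries that share groups. The genes most like Gabrb2 were Gria4, a glutamate receptor subunit gene (r = 0.991), Etv1, a transcription factor gene of proprioceptive and other sensory neurons (r = 0.984), and Mme, the gene of the peptidase neprilysin (r = 0.976), among 7731 genes with a mean of at least 5 RPKM. Etv1 went from 79.6 ± 3.64 RPKM (SD, n = 3) in naive ganglia to 47.9 ± 6.16, 44.5 ± 0.971 and 53.4 ± 10.1 at days 1, 3 and 7. The genes most like Gabrg1 were Tsn (r = 0.968), Neto1, an auxiliary subunit gene of kainate receptors (r = 0.967), and Pde1a, a phosphodiesterase gene (r = 0.965). Neto1 stood at 12.6 ± 0.563, 14.2 ± 2.12, 37.5 ± 4.34 and 42.7 ± 7.6 RPKM, so that like Gabrg1 it was high at days 3 and 7. Pde1a stood at 5.54 ± 0.461, 6.29 ± 0.885, 12.5 ± 0.766 and 15.7 ± 3.21 RPKM in the same order, while Tsn spanned only 11.5 ± 0.295 to 14.5 ± 1.04 RPKM.

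Of 23 genes for assembly, trafficking and anchoring of the receptor, 22 were tested. By limma, 1 rose and 1 fell at day 1, 3 rose and 2 fell at day 3, and 0 rose and 2 fell at day 7, where 3.37%, 5.73% and 2.9% of all genes were called. By voom, 1 rose and 1 fell at day 1, 3 rose and 1 fell at day 3, and 2 rose and 2 fell at day 7. At an unadjusted p under 0.05 limma had 5 genes at day 7. For voom and for the unadjusted p, the share of all genes is not given. The median log2 fold changes were -0.00, 0.00 and -0.04. Igsf9b, an adhesion protein of inhibitory synapses, rose from 4.74, 4.85 and 4.58 RPKM in naive libraries to 9.77, 10.1 and 12.6 at day 1 (log2 fold change 1.12, adjusted p = 0.0014, limma). At day 3 Igsf9b had a mean of 9.29 RPKM (0.87, adjusted p = 0.00552, limma), and at day 7 its mean was 8.12 RPKM, above naive in every library (0.65, adjusted p = 0.0509, limma). Slitrk3, an adhesion protein of inhibitory synapses, fell from a naive mean of 32.0 RPKM to 20.8, 22.6 and 20.5 at days 1, 3 and 7, by 0.60, 0.53 and 0.66 on the log2 scale (adjusted p = 0.0186, 0.0269 and 0.0102, limma). Its calls were lost without naive replicate 2 (0.102, 0.134 and 0.0665) or naive replicate 3 (0.0745, 0.0949 and 0.0504), at day 1 without day 1 replicate 1 (0.103) or 3 (0.0606), at day 3 without day 3 replicate 2 (0.0843) or 3 (0.124), and at day 7 without the libraries with muscle transcripts (0.0553).

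Lhfpl4, an auxiliary protein that ties receptors to neuroligin 2, had a naive mean of 46.7 RPKM and fell to 37.2 RPKM at day 3 (-0.36, adjusted p = 0.0439) and 36.4 RPKM at day 7 (-0.39, adjusted p = 0.0424, limma), calls that 12 and 13 of the alternatives did not keep. Plcl2, which binds receptor β subunits and GABARAP, went from 2.88 RPKM to 5.09 RPKM at day 3 (0.69, adjusted p = 0.01, limma). The third gene that rose at day 3, Zdhhc3, a palmitoyltransferase gene, was named after its values were seen (8.94 to 12.4 RPKM, 0.42, adjusted p = 0.0406, limma). The anchoring protein gephyrin is encoded by Gphn, which was not called.

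Among 11 genes of GABA synthesis, transport and breakdown, 7 were tested and 0 were called by limma at any day. At days 1, 3 and 7 there were 2, 1 and 0 at an unadjusted p under 0.05 and 0 by voom. Of all genes, limma called 3.37%, 5.73% and 2.9% at those days. The synthesizing enzymes Gad1 (0 to 0.27 RPKM) and Gad2 (0.0693 to 0.644 RPKM) and the vesicular transporter Slc32a1 (0 to 0.0235 RPKM) were under the filter and not tested. At these low values Gad2 stood at 0.141 to 0.212 RPKM in naive libraries and 0.0693 to 0.257 at day 1. It was at 0.333 to 0.45 RPKM at day 3 and 0.391 to 0.644 at day 7, above naive in every library. Gad1 and Slc32a1 overlapped with naive at each day. The 6 genes of the metabotropic GABA-B receptor and its auxiliary subunits had 1 call, at day 3, where 5.73% of all genes were called. This was Kctd16, an auxiliary subunit, which fell from 75.0 to 49.2 RPKM (-0.64 ± 0.15, adjusted p = 0.017, limma). Its adjusted p was above the threshold without naive replicates 1 or 3 (0.0567 and 0.0726) and without day 3 replicates 1 or 2 (0.0639 and 0.0936). At days 1 and 7, 0 of the 6 were called by limma, against 3.37% and 2.9% of all genes. There were 0 and 1 at an unadjusted p under 0.05 and 0 by voom.

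The chloride cotransporters and their kinases set the driving force for GABA-A currents. Of 10 genes, 8 were tested and 0 were called by limma, with 2, 1 and 0 at an unadjusted p under 0.05 at days 1, 3 and 7 and 0 of 7 by voom. Limma called 3.37%, 5.73% and 2.9% of all genes at those days. Slc12a2, the chloride importer, had means of 70.3, 60.3, 60.3 and 62.7 RPKM in naive ganglia and at days 1, 3 and 7, and Slc12a5, the exporter of mature central neurons, stood at 0.105 to 0.49 RPKM, under the filter.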

How the data were processed

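RNA-seq of mouse dorsal root ganglia was read from 12 libraries, grouped by their titles into naive and days 1, 3 and 7 after spared nerve injury. Per the labels' protocols, the RNA came from Trizol and RNeasy columns and was amplified with a Nugen Ovation kit for 500 pg of input and made into libraries with TruSeq Nano. After amplification without molecular identifiers, 2 reads can come from 1 molecule. The submitters' processing notes name mm10 and the tools bcl2fastq 2.17, STAR, HTSeq, edgeR and limma, while the annotation, counting options and other versions are not given there. RPKM is the unit taken for the values the authors deposited, a unit inferred from the values. Of 18536 genes detected in 6 or more libraries, 18500 had values that were whole multiples (within 0.05 reads) of what 1 read is worth. Those 18500 were 85.7% of all 21597 detected genes, and genes detected in fewer libraries were not counted among them.

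Genes that reached an RPKM of 1 in 3 or more libraries were tested. Libraries were scaled by trimmed means of log ratios (factors 0.916 to 1.10), and log2(RPKM + 0.5) was tested with limma 3.58.1 in R 4.3.3 (statmod 1.5.0), with a variance trend, robust moderation, 1 model of 4 group means and 8 residual degrees of freedom. Printed RPKM are not scaled, and fold changes on this log2 scale understate those of low genes. Two-sided p-values were adjusted by Benjamini-Hochberg over the 14195 genes, with a threshold of 0.05. The code was also run on simulated reads whose spread between libraries was set in advance. That run cannot tell whether calls in these data are right. An exact permutation test of 3 against 3 libraries cannot go below p = 0.1. No replicates agreed within sampling noise, and the labels do not say that libraries came from separate mice, and the spread that the p-values rest on may be technical.

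The members, the gene lists and the tests were chosen with earlier results of these data known. All 7 members were named. Of each other list, up to 4 genes called at any day against naive were named, by the smallest p over the 4 groups. For each member with an adjusted p under 0.05 over the 4 groups, the 3 genes with the highest Pearson r were named, leaving out predicted genes. Motifs were searched in the 250 bases before RefSeq start sites (GRCm38.p6), in which all 7 members had a window. Protein sequences were not used here, and some other subunit genes are not reported here. Alternatives changed the pseudocount, filter, scaling, weights, the samples in the model and the replicate block, used voom on recovered reads, or left out libraries, and 2 were added after seeing the data, the removal of the libraries with muscle transcripts and scaling against naive replicate 1.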

Additional observations from a re-analysis of the deposited data

Results flagged for a closer look

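Gabrg1 had an effect that differed between days. Its log2 difference from naive was larger at day 3 than at day 1 by 0.98 (95% interval 0.62 to 1.34, adjusted p = 0.0244, limma), and larger at day 7 than at day 1 by 1.16 (0.80 to 1.52, adjusted p = 0.00474, limma). Both are tests of the difference between the days themselves, in which naive cancels. All 6 libraries of days 3 and 7 were above all 3 of day 1, where 15.3% and 14% of all genes did not overlap with day 1. The day 3 call was lost in 5 of the runs that left out 1 library (adjusted p from 0.0732 to 0.0984, limma). The day 7 call was lost with only those 2 groups in the fit (adjusted p = 0.0527, limma). Groups of 3 libraries were not searched for single libraries far from the others.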

How the results depend on the processing

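Numbers of members called, of 7, moved as follows. At day 1 the number went from 0 to 1 with a pseudocount of 1, without scaling, with median scaling, with voom and with only the 2 groups compared in the fit, and to 2 with array weights. At day 3 it went from 2 to 3 with voom, with only the 2 groups compared and without the 2 libraries with muscle transcripts, and to 4 with array weights, and at day 7 from 1 to 2 without scaling, with voom or with array weights and to 0 without the 2 libraries with muscle transcripts. Between days 7 and 1 it went from 1 to 0 with only the 2 groups compared. In the test over the 4 groups it went from 2 (Gabrb2 and Gabrg1) to 1 without a filter, with a filter at RPKM 5 (which left 4 members), with the replicate block and without the libraries with muscle transcripts, and to 4 with array weights. Leaving out 1 library at a time gave 0 to 1 members at day 1, 1 to 2 at day 3, 1 to 2 at day 7, 0 to 1 between days 3 and 1, 1 to 1 between days 7 and 1, 0 to 0 between days 7 and 3 and 1 to 2 over the 4 groups. Array weights let libraries differ in weight, and the cause of the other moves was not tested.

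Of 543 fold changes of members under alternatives, 504 kept direction and side of the threshold, 18 became called, 10 lost a call and 11 changed sign, all of these in Gabra3 and Gabrg3. Gabra3 at day 1 ran from -0.0104 to 0.19 with 1 library left out and was -0.0106 without the libraries with muscle transcripts, and at day 3 it ran from -0.33 to 0.06. Gabrg3 at day 3 was -0.0105 with a pseudocount of 0.1, -0.0245 with voom, -0.0712 with array weights and -0.0522 without the libraries with muscle transcripts, and ran from -0.25 to 0.28 with 1 library left out. With array weights 12.8%, 13.7% and 5.99% of all genes were called at days 1, 3 and 7. Removing the 2 libraries with muscle transcripts left 2% and 1.15% at days 1 and 7. With only 2 groups in the fit 1.88% were called at day 7. Leaving out 1 library gave 1.54% to 4.35% at day 1, 3.15% to 7.6% at day 3 and 1.63% to 3.67% at day 7. Between days 3 and 1 it gave 0.0851% to 0.743% (0.5% with all libraries), and between days 7 and 1 0.383% to 0.836% (0.965%). Voom and array weights called 1.04% and 2.37% between days 3 and 1 and 1.7% and 1.92% between days 7 and 1, where only 2 groups in the fit gave 0.281% and leaving out the libraries with muscle transcripts 0.414%.

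Replicate numbers gave no clear pairing of the libraries. Of 18 same-numbered pairs, 3 had deviations from the group means that correlated over 0.1 (r from -0.34 to 0.23). Pairs with other numbers had r from -0.35 to 0.30, and 4 of 12 libraries correlated best with their own number. These values do not show that the libraries were unpaired. With the replicate block, the numbers of members called were 0, 2 and 1 at days 1, 3 and 7, and 1 over the 4 groups, where Gabrb2 had an adjusted p of 0.0583. Lhfpl4 lost both calls with the block (adjusted p = 0.0936 and 0.0983, limma). Of all genes, the block called 0.204% between days 3 and 1 and 0.606% between days 7 and 1. At 35 to 131 reads per library, Gabrg3, Gabrb1 and Gabra3 were the members with the fewest reads, and the part of depth in their precision was not tested.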
